A study of Homo sapiens with 5 samples.

Results

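The genes of the ATF and CREB family examined here were ATF1, CREB1, CREM, ATF2, ATF7, CREB5, ATF6 and CREB3, together with CRTC2, the gene of a coactivator of CREB. These 9 of 20163 protein-coding genes were taken by name, and all peaks from 20 kb upstream of the gene start to the gene end (hg19) were assigned to them. The 9 regions covered 1367.8 kb, did not overlap each other and held 107 of the 123989 peaks in 5 peak lists. Each list came from 1 ChIP-seq library of HCT116, a human colon cancer cell line, and no condition had a replicate. ATF3 was precipitated from ATF3-WT cells that received DMSO, the solvent (ATF3-Ctrl), and from ATF3-WT cells treated with 1.5 μM of camptothecin (CPT), an inhibitor of topoisomerase I that damages DNA, for 4 h (ATF3-CPT). ATF3 was also precipitated from ATF3-KO cells that received DMSO (ATF3-KO). This line was derived from single clones after viral gene targeting, with a small deletion in exon 3 of both ATF3 alleles. p53 was precipitated from p53-WT cells treated with the same dose of CPT for the same time (p53-CPT) and from p53-KO cells that received DMSO (p53-KO). The p53 libraries therefore differed in genotype and in treatment, and no library came from knockout cells treated with CPT.

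Proteins of this family carry a basic leucine zipper, with which pairs of them grip DNA. CREB1, ATF1 and CREM bind the cAMP response element (CRE), of which TGACGTCA is the full palindrome, and are switched on by phosphorylation and by CRTC coactivators. ATF2 and its paralogs ATF7 and CREB5 can pair with JUN proteins, while ATF6 and CREB3 are held in the membranes of the secretory pathway and are released by proteolysis. ATF3, the protein precipitated here, is a stress-induced relative that binds both the CRE and the AP-1 site (TGACTCA, or TGAGTCA on the other strand). The data therefore show where 1 member of the family sat on the genes of the others.

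Sequences under ATF3 peaks with an exact core are printed first, chosen as the highest promoter peak with a full CRE of each member that had one and the highest such peaks elsewhere in the regions of CRTC2 and CREB5, from the hg19 reference, plus strand, 5′ to 3′, with the core in capitals. The first pair came from promoters, the third lay upstream of CRTC2 at the start of the neighbouring gene SLC39A1, and the fourth was the highest non-promoter peak of all members in ATF3-CPT and held 2 AP-1 cores.
CREB5 promoter peak, chr7:28448869-28448993: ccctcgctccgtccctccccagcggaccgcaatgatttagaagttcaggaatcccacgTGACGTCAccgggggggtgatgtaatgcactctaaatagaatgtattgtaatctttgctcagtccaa
CREM promoter peak, window chr10:35484769-35484798: gagctgcacatTGACGTCAgctccgagtca
CRTC2 upstream peak, window chr1:153936113-153936142: cagaccgggagTGACGTCAgttaggagcaa
CREB5 peak upstream of CREB5-211, chr7:28398301-28398425: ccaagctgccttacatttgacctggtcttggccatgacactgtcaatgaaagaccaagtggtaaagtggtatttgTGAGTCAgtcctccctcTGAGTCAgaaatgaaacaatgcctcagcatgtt
Further windows show the AP-1 core under the highest basal peak of any member and the shorter core TGACG, the common part of many CRE variants, in the promoter of CREB3 (minus strand).
CREB5 internal promoter, window chr7:28725695-28725724: tgggaaggataTGACTCActcaagctagtt
CREB3 promoter, window chr9:35732557-35732586: aacgcagcgaaagTGACGcaccccaccccg
The last window was chosen after the values had been seen, because no promoter peak of CREB3 held an exact CRE or AP-1 core.

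ATF3 peaks were found at 8 of the 9 members before CPT and at all 9 after it. ATF3-Ctrl had 28 peaks in 8 members, with none at ATF2, and 65.1% of all protein-coding genes had a peak in that list. ATF3-CPT had 65 peaks in 9 members, against 81.0% of all genes. Per 100 kb of region, the members held 2.05 ATF3-Ctrl peaks and 4.75 ATF3-CPT peaks, and all genes together held 1.78 and 3.58. The regions of 7 members were longer than the median of 47.2 kb over all genes, up to 546.6 kb at CREB5, and those of CREB3 (24.4 kb) and CRTC2 (30.9 kb) were shorter. A promoter peak, with its centre within 2 kb of an annotated transcription start site (TSS) of the gene, was present at 6 members in ATF3-Ctrl (42.8% of all genes) and at 9 in ATF3-CPT (58.8% of all genes). The members without a promoter peak before CPT were ATF2, ATF7 and CRTC2. Members had from 2 annotated TSS positions (CREB3) to 42 (CREM), and the shares of all genes were not matched for this number. Counting the gene start only, 5 members had a promoter peak in ATF3-Ctrl and 8 in ATF3-CPT. The per-gene counts spread widely, from 3 ATF3-CPT peaks at CREB1 and ATF2 to 24 at CREB5, and the density was highest over the short regions of CRTC2 and CREB3. In the CRTC2 region most ATF3-CPT peaks lay nearest to the TSS of other genes.

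**Figure D1:**
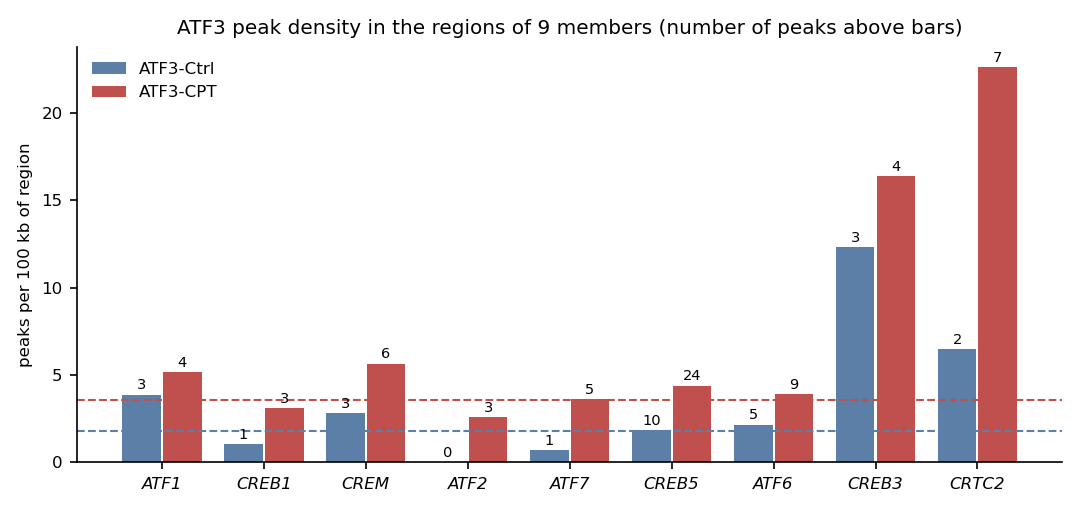
ATF3 peaks per 100 kb of region (vertical axis) for each member in ATF3-Ctrl (blue) and ATF3-CPT (red), with the number of peaks above each bar and the value over all protein-coding genes as dashed lines (1.78 and 3.58). The density after CPT was highest in the regions of CRTC2 (22.62 per 100 kb, 7 peaks) and CREB3 (16.39 per 100 kb, 4 peaks), while CREB5 held the most peaks (24) at 4.39 per 100 kb. Most of the 7 peaks in the CRTC2 region lay nearest to the TSS of SLC39A1, CREB3L4 or JTB.

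The heights given below are normalized tag counts, in tags per 10000000 tags of the library, with exact Poisson 95% intervals that cover counting error only. The ATF3 libraries held 12820520 to 15457013 tags, so 1 tag was worth 0.647 to 0.78. The p53 libraries were shallower (1984941 and 3169743 tags), so 1 tag was worth 3.155 or 5.038. The share of tags in peaks was 5.60% in ATF3-Ctrl, 12.76% in ATF3-CPT and 0.56% in ATF3-KO. The region of the ATF3 gene itself held 8, 9 and 0 peaks in these 3 libraries. The lists hold only peaks that passed the caller's thresholds of 6 to 11 tags, so a missing peak means that binding was not detectable at this depth, not that it was absent. With 1 library per condition, differences between libraries have no replicate check and no p-value is given.

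**Figure D2:**
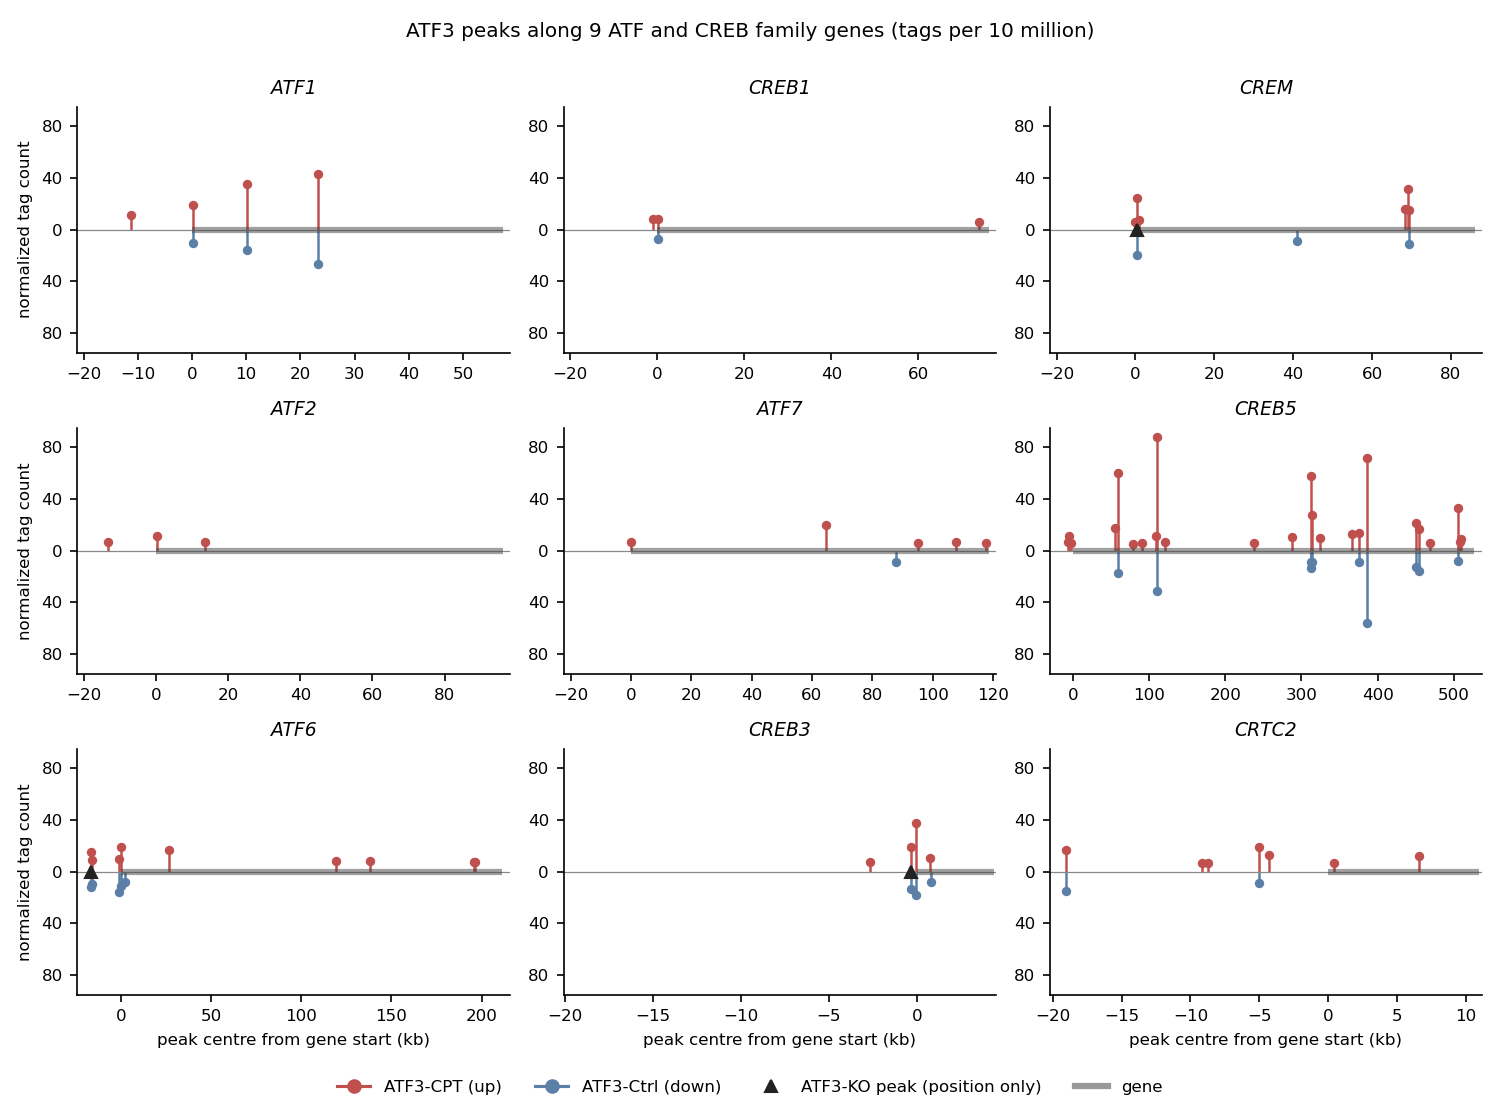
Normalized tag count (vertical axis, tags per 10000000 tags) of every ATF3 peak along the 9 members against the distance of the peak centre from the gene start (kb), with ATF3-CPT upwards in red, ATF3-Ctrl downwards in blue, the gene as a grey bar and ATF3-KO peaks as black triangles. The highest peaks of both libraries were in CREB5 (55.6 in ATF3-Ctrl, 88.0 in ATF3-CPT), and the 3 ATF3-KO peaks lay at CREM, ATF6 and CREB3.

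Most basal sites were found again after CPT, and most of the peaks listed only with CPT were low. A peak of ATF3-CPT lay on 24 of the 28 basal sites, where 79.9% of the whole ATF3-Ctrl list had one. The other 4 were at ATF7, CREM, CREB5 and ATF6 and had heights of 7.7 to 8.5. Of the 65 ATF3-CPT peaks, 41 had no ATF3-Ctrl peak, where 61.7% of all ATF3-CPT peaks had none. These 41 had a median height of 7.8 (range 5.2 to 31.1), against 8.4 for all peaks of this kind. The lowest ATF3-Ctrl peak of the members had a height of 7.0. For many of the 41, a basal signal just under the threshold therefore cannot be told from none. The 24 with an ATF3-Ctrl peak had a median of 19.1 (range 8.4 to 88.0), against 22.6. CREB5 held 15 of the 41 peaks found only with CPT, none higher than 17.5.

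At the 24 shared sites the signal was higher after CPT in 22, and the counting interval of the ratio excluded 1 at 9 sites, all of them higher. Ratios above 1 were general, with a lower quartile of 1.13 over all shared sites of the 2 lists. The share of all sites whose interval excluded 1 is not given here. Taking a ratio of at least 2 as a call, 8 sites were higher, where 43.9% of all 26906 shared sites were higher, and 0 were at most 0.5, where 2.16% of all sites were. The share of members' sites called higher, 33.3%, was below that background. The median ratio was 1.62 over the members' sites and 1.81 over all sites. The medians were 1.38 at 11 promoter sites (1.46 over all promoter sites) and 1.72 at 13 other sites (2.01 over all sites outside promoters). These classes were not drawn alike. A members' site counted as promoter only near a TSS of the member, and a site of the whole list near any protein-coding TSS. The 13 other sites therefore include those at the starts of DUSP12 (ratios 1.34 and 0.98), SLC39A1 (2.21) and JTB (1.14). Whether the members' sites away from every TSS differed from 2.01 cannot be read from these medians. By gene, 5 of the 9 CREB5 sites were called higher (median 2.85), and 3 of the 15 sites of the other members were (median 1.38).

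**Figure D3:**
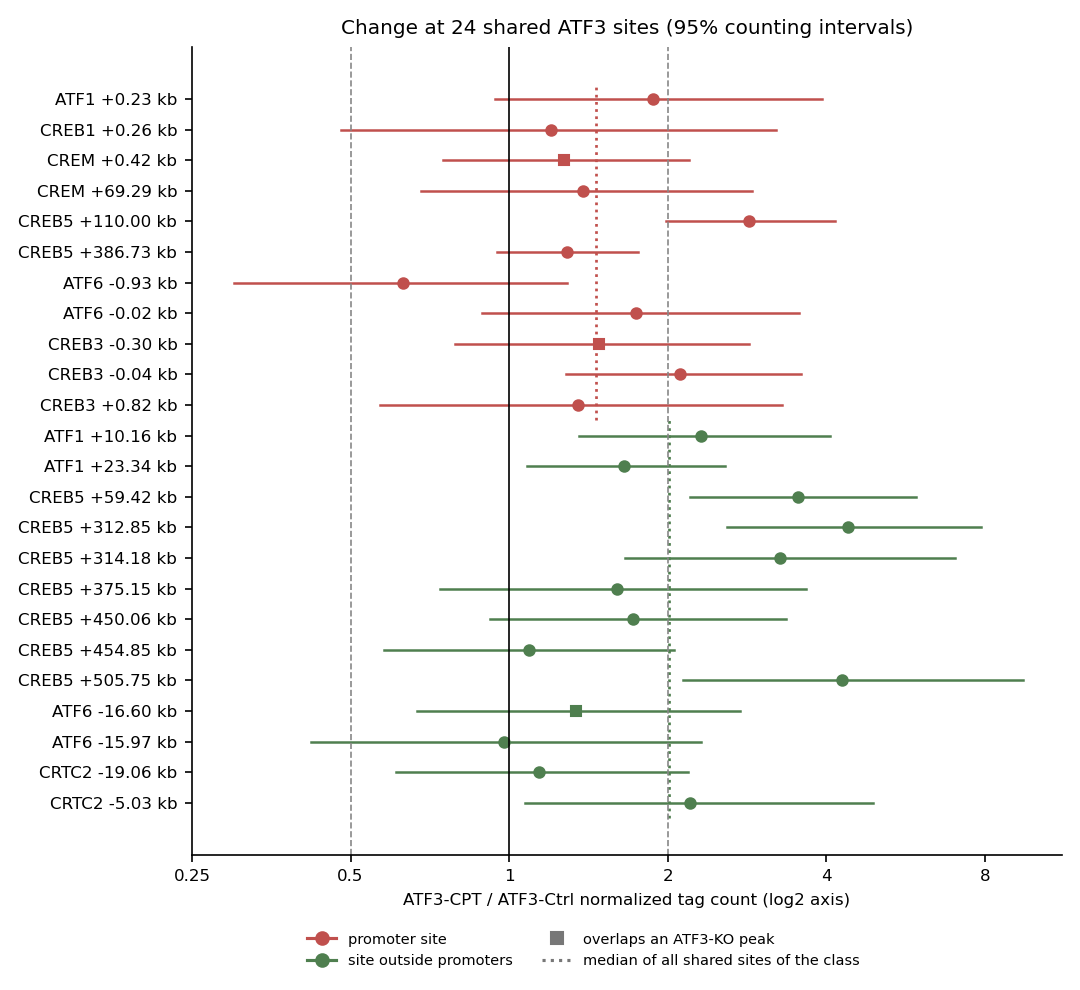
Ratio of the normalized tag count in ATF3-CPT to that in ATF3-Ctrl (horizontal axis, log2 scale) at the 24 shared sites, named by gene and distance from the gene start, with 95% counting intervals. Sites at a promoter of the member are red and other sites green, dashed lines mark ratios of 0.5 and 2, and squares mark the 3 sites that overlapped an ATF3-KO peak. Dotted lines mark the medians over all shared sites within and beyond 2 kb of any protein-coding TSS (1.46 and 2.01). Green sites include some at the TSS of neighbouring genes. Of the 8 sites at or above 2, 5 were in CREB5.

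CREB1, the founding CRE-binding activator, had little ATF3 signal, and its highest peak after CPT was the lowest of any member. Its promoter peak in exon 1 (chr2:208394659-208394785, 36 bp downstream of the nearest CREB1 TSS) had a height of 7.0 (3.2 to 13.2) in ATF3-Ctrl and 8.4 (4.5 to 14.4) in ATF3-CPT. The ratio of 1.2 had an interval from 0.48 to 3.21, so no difference was detectable. A second promoter peak 1082 bp upstream of the gene start (8.4) and a peak in exon 8 (5.8) were in ATF3-CPT only.

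ATF1, the closest relative of CREB1, had more signal inside the gene than at its promoter. The promoter peak, 143 bp upstream of an ATF1 TSS, had a height of 10.0 in ATF3-Ctrl and 18.8 in ATF3-CPT (ratio 1.88, interval 0.94 to 3.92). The peak in intron 1 had a height of 15.4 in ATF3-Ctrl and 35.6 in ATF3-CPT (ratio 2.31, interval 1.36 to 4.06). The peak in intron 2, the highest of ATF1 in both libraries, had a height of 26.3 in ATF3-Ctrl and 43.3 in ATF3-CPT (ratio 1.65, interval 1.08 to 2.57). The ATF3-Ctrl peak there held an AP-1 core and the ATF3-CPT peak, centred 71 bp away, did not. The intervals of both intronic ratios thus excluded 1, and that of the promoter ratio did not. The promoter ratio was higher than that of intron 2 but rested on fewer tags (13 and 29, against 34 and 67). The intervals therefore do not separate the promoter from the intronic sites. One further peak of 11.0, 11189 bp upstream, was in ATF3-CPT only.

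At CREM, the signal was divided between the main promoter and a cluster of TSS inside the gene. CREM is known for an internal promoter from which the inducible cAMP early repressor (ICER), a short repressor that lacks the activation domains, is transcribed under the control of CREs. The annotation names no transcript ICER, but it places 9 of the 42 CREM TSS positions in intron 6, between 68336 and 69608 bp from the gene start. In ATF3-CPT, 3 peaks lay there. The highest, chr10:35484739-35484863, was centred 8 bp downstream of the TSS of CREM-236, had a height of 31.1 (22.9 to 41.2) and held the full CRE printed above, 9 bp upstream of that TSS. It was the highest of the 41 members' peaks that had no ATF3-Ctrl peak. The peak 59 bp upstream of the TSS of CREM-234 (16.2, interval 10.5 to 23.9) also had no ATF3-Ctrl peak. The other ATF3-CPT peak (14.9) overlapped the only ATF3-Ctrl peak of intron 6 (10.8, interval 5.9 to 18.1), with a ratio of 1.38 (0.68 to 2.89). The centre of that ATF3-Ctrl peak was 212 bp from the CRE peak, closer than the 252 bp that the caller required between peaks of this library. A weaker basal peak on the CRE could therefore not have been listed separately, and no fold is given for it.

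**Figure D4:**
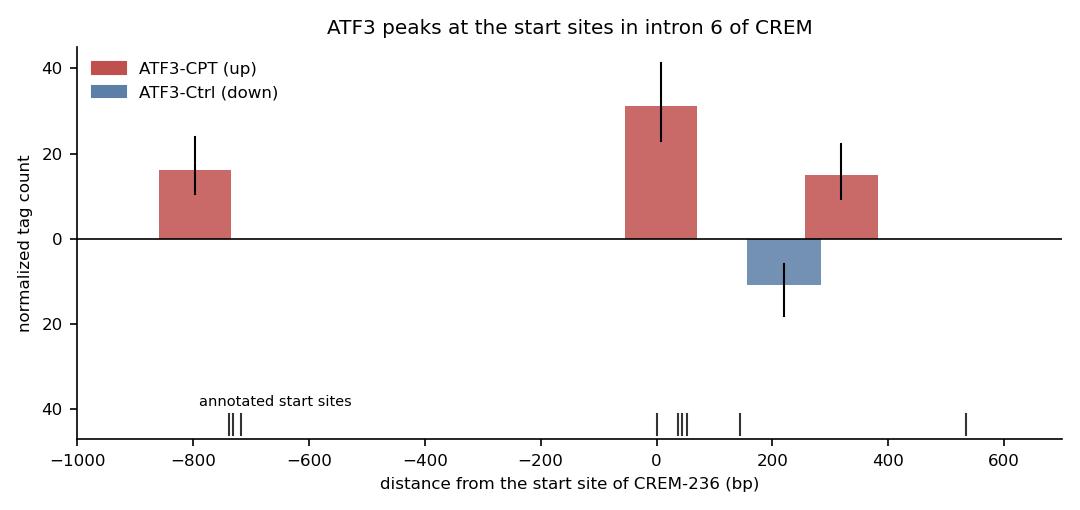
ATF3 peaks at the TSS cluster in intron 6 of CREM, drawn to their width at the distance from the TSS of CREM-236 (horizontal axis, bp), with the normalized tag count (vertical axis) upwards for ATF3-CPT and downwards for ATF3-Ctrl, 95% counting intervals as black lines and annotated TSS as ticks. The ATF3-CPT peak of 31.1 covers the TSS of CREM-236, and the ATF3-Ctrl peak of 10.8 lies downstream of it.

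At the main promoter of CREM, ATF3-Ctrl had a peak of 19.3 (12.5 to 28.5) and ATF3-CPT a peak of 24.6 (17.4 to 33.7), with a ratio of 1.27 (0.75 to 2.20). This site also had a peak in ATF3-KO, with a height of 9.4 (4.8 to 16.4). Smaller ATF3-CPT peaks flanked it, with 7.1 in intron 1 and 5.8 upstream, where the TSS of the divergent gene CUL2 was 13 bp away. A basal peak of 8.5 at TSS in intron 3 was not found after CPT. All ATF3 peaks of CREM in these lists were promoter peaks, 3 in ATF3-Ctrl and 6 in ATF3-CPT, and neither of the 2 shared sites was called higher.

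ATF2 and ATF7, paralogs that pair with JUN, had little ATF3 at their promoters. ATF2 had no peak in ATF3-Ctrl, and in ATF3-CPT its promoter peak, 67 bp downstream of the gene start, had a height of 11.0 (6.4 to 17.6). Its other ATF3-CPT peaks had a height of 6.5 each, 1 in intron 1 with an AP-1 core and 1 at the start of the neighbouring gene ATP5MC3. ATF7 had no promoter peak in ATF3-Ctrl and one of 6.5 (3.1 to 11.9) in exon 1 in ATF3-CPT. The highest ATF7 peak, 20.1 (13.6 to 28.5) in intron 2 with an AP-1 core, was found in ATF3-CPT only. The single basal ATF7 peak, 8.5 in intron 4, was not found after CPT.

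CREB5, the third member of that group, carried the highest ATF3 signal of the 9 members, inside the gene and away from its 5′-most start. No peak of either library lay within 2 kb of that start, and the nearest was an ATF3-CPT peak of 5.8, 2275 bp upstream. The peak with the full CRE, centred 19 to 23 bp upstream of the TSS of CREB5-211, had a height of 30.9 (22.1 to 42.1) in ATF3-Ctrl and 88.0 (73.8 to 104.1) in ATF3-CPT. The ratio was 2.85 (1.99 to 4.16), and the ATF3-CPT peak was higher than 98.4% of that list. In ATF3-CPT the core lay at the centre of the peak, 0 bp from it, and in ATF3-Ctrl 4 bp from it. A smaller peak 519 bp upstream of the same TSS (11.0) was in ATF3-CPT only. The peak at the TSS of CREB5-202, 386726 bp from the gene start, was the highest basal peak of all members. It had a height of 55.6 (43.5 to 70.0) in ATF3-Ctrl and 71.8 (59.1 to 86.5) in ATF3-CPT. Its ratio of 1.29 had an interval from 0.95 to 1.76, which lies below 2.

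Away from these promoters, 4 other CREB5 sites had ratios above 2. The site with 2 AP-1 cores, 50590 bp upstream of the TSS of CREB5-211, had a height of 17.0 in ATF3-Ctrl and 60.2 in ATF3-CPT (ratio 3.54, interval 2.21 to 5.92). In intron 5, a site had 13.1 in ATF3-Ctrl and 57.6 in ATF3-CPT, with the highest ratio of the members (4.40, interval 2.59 to 7.86), higher than 97.2% of all shared sites. The CREB5 basal peak without an overlapping ATF3-CPT peak (8.5) was centred only 344 bp from this ATF3-CPT peak. It did not enter the ratio. A weaker shared site in that intron had 8.5 in ATF3-Ctrl and 27.8 in ATF3-CPT (ratio 3.27, interval 1.66 to 7.04). In intron 8, a site had 7.7 in ATF3-Ctrl and 33.0 in ATF3-CPT (ratio 4.29, interval 2.14 to 9.44). All 4 of these ATF3-CPT peaks held an AP-1 core. The other shared CREB5 sites had ratios from 1.09 to 1.72 with intervals that included 1. The only other full CRE in CREB5 was in a weak ATF3-CPT peak of intron 1 (6.5).

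ATF6 and CREB3, the membrane-bound members, had peaks directly at their TSS. At CREB3, a very short gene, the peak centred 40 bp upstream of the TSS in ATF3-Ctrl had a height of 17.8 (11.3 to 26.7), and in ATF3-CPT it had 37.5 (28.5 to 48.5). The ratio was 2.11 (1.28 to 3.59), and no separate ATF3-KO peak was listed at this site. The adjacent CREB3 peak was closer to the TSS of the divergent gene TLN1, which encodes talin, and had a height of 13.1 in ATF3-Ctrl, 19.4 in ATF3-CPT and 13.3 in ATF3-KO. The ATF3-KO peak was centred 315 bp from the peak at the CREB3 TSS, closer than the 396 bp that the caller required between peaks of that library, so a weaker knockout peak at the TSS could not have been listed. A CREB3 peak in the gene body, 819 bp from the start, had 7.7 in ATF3-Ctrl and 10.4 in ATF3-CPT (ratio 1.35, interval 0.57 to 3.30).

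At ATF6, the sensor of unfolded proteins in the endoplasmic reticulum, neither promoter site changed beyond counting error. The peak at the TSS had a height of 10.8 in ATF3-Ctrl and 18.8 in ATF3-CPT (ratio 1.74, interval 0.89 to 3.55). The peak 931 bp upstream had 15.4 in ATF3-Ctrl and 9.7 in ATF3-CPT. Its ratio of 0.63 (0.30 to 1.29) was the lowest of the 24 sites and lower than that of all but 5.1% of all shared sites. Inside the gene, ATF3-CPT had peaks of 7.8 to 16.8 with no basal partner, and a basal peak of 7.7 in intron 1 was not found after CPT. The pair of sites farthest upstream belonged by position to DUSP12, a phosphatase gene whose TSS was 56 bp and 524 bp from their centres in ATF3-Ctrl. The first had 11.6 in ATF3-Ctrl, 15.5 in ATF3-CPT and 16.4 in ATF3-KO, and the other had 9.3 and 9.1 with no ATF3-KO peak.

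CRTC2, the coactivator that enters the nucleus on dephosphorylation, had no basal peak at its own TSS. In ATF3-CPT it had a peak of 6.5 in intron 1 and a peak of 12.3 with an AP-1 core at an internal TSS in exon 10. The stronger signal in its region lay upstream at other genes. The peak with the full CRE, 8 bp upstream of the TSS of SLC39A1, a zinc transporter gene, had a height of 8.5 (4.2 to 15.2) in ATF3-Ctrl and 18.8 (12.6 to 26.9) in ATF3-CPT, with a ratio of 2.21 (1.07 to 4.90). The peak at the TSS of JTB had 14.7 in ATF3-Ctrl and 16.8 in ATF3-CPT (ratio 1.14, interval 0.61 to 2.19). Of the 7 ATF3-CPT peaks of the region, 1 was nearest to CREB3L4, another gene of the family whose region overlaps that of CRTC2.

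AP-1 cores were the most frequent exact core in the members' peaks, and most of them lay outside promoters. The cores were searched on both strands within the deposited peak, and the short core TGACG includes every full CRE. In ATF3-Ctrl, 2 of 28 peaks held a full CRE (1.93% of all peaks), 9 held an AP-1 core (31.0%) and 9 held the short core (16.9%). In ATF3-CPT, 4 of 65 peaks held a full CRE (1.41%), 23 held an AP-1 core (40.6%) and 13 held the short core (13.2%). Of the 21 ATF3-CPT promoter peaks, 2 held a full CRE (3.30% of all promoter peaks) and 3 held an AP-1 core (21.2%). Of the 44 peaks outside the members' promoters, 20 held an AP-1 core. Over all ATF3-CPT peaks more than 2 kb from any protein-coding TSS the share was 47.1%. That class is narrower, since several of the 44 lay at the TSS of neighbouring genes, so the shares are not directly comparable. The short core was in 7 of the 12 basal promoter peaks, where 30.4% of all ATF3-Ctrl promoter peaks held it, including those of ATF1, CREB1, CREM, ATF6 and CREB3.

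The ratios were also read by the core in the peak. The 8 shared sites with an AP-1 core in the ATF3-CPT peak had a median ratio of 2.79 (1.29 to 4.40), and 5 were called higher. Of these 8 sites, 7 were in CREB5, so the core and the gene cannot be told apart here. The 2 sites with a full CRE, at CREB5 and SLC39A1, had ratios of 2.85 and 2.21. The 14 sites with neither core had a median of 1.35 (0.63 to 2.11), and 1 of them, at CREB3, was called higher. Over all shared sites the medians were 2.40 with an AP-1 core (67.9% called higher), 1.98 with a full CRE (49.3%) and 1.35 with neither (27.7%). A match is a description of the letters in the peak and no evidence of which protein sat there.

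Peaks remained in the knockout cells at 3 members, 1 each at CREM, ATF6 and CREB3, where 11.4% of all genes had an ATF3-KO peak. By position these were the CREM main promoter (9.4), the DUSP12 start (16.4) and the TLN1 start (13.3), and 2 of the 3 were promoter peaks of a member (8.04% of all genes had one). Of the 28 basal sites, 3 coincided with a knockout peak (5.23% of the whole ATF3-Ctrl list), and so did 3 of the 65 sites found with CPT (2.53% of the whole ATF3-CPT list). None of the 3 ATF3-KO peaks held a full CRE or an AP-1 core, and 1, at CREM, held the short core. Over the whole ATF3-KO list 6.05% of peaks held a full CRE, 3.44% an AP-1 core and 35.6% the short core. With 3 peaks, no departure from these shares can be seen. At the same sites the ATF3-Ctrl heights were 19.3, 11.6 and 13.1, and the intervals of the paired heights overlapped at each site. In ATF3-Ctrl and ATF3-KO the tags were 25 and 12 at CREM, 15 and 21 at the DUSP12 start, and 17 and 17 at the TLN1 start. Overlap of separate intervals is a looser criterion than the ratio interval used for CPT and does not show that the heights were equal. The ATF3-KO peaks were called at a width of 198 bp and those of ATF3-Ctrl at 126 bp, so the heights are not over equal windows. None of these 3 sites was called higher after CPT, with ratios of 1.27, 1.34 and 1.48. The remaining 25 basal sites, those of ATF1, CREB1 and CREB5 among them, had no listed peak in ATF3-KO, and at the CREB3 TSS a weaker one could not have been listed.

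The p53 antibody gave 7 peaks in 3 members after CPT, 5 at CREB5 and 1 each at ATF1 and CREM (21.8% of all genes had a p53-CPT peak). In p53-KO cells it gave 4 peaks, 3 at CREB5 and 1 at ATF1 (17.4% of all genes). Of the 7 p53-CPT peaks, 4 overlapped a p53-KO peak, where 60.9% of all p53-CPT peaks did. These 4 sites thus gave a peak without p53 as well. The ATF1 peak in intron 2 had a height of 72.6 (46.0 to 108.9) in p53-CPT and 45.3 (20.7 to 86.1) in p53-KO. The highest CREB5 peak, 1295 bp upstream of the TSS of CREB5-207, had 85.2 (56.1 to 123.9) in p53-CPT and 95.7 (57.6 to 149.5) in p53-KO. The CREB5 peaks in introns 4 and 5 had 47.3 and 31.5 in p53-CPT and 35.3 and 50.4 in p53-KO. All these pairs had overlapping intervals, which does not show that the heights were equal.

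The 3 p53-CPT peaks without a p53-KO partner were the weakest of the 7. They were a CREM peak in intron 3 of 28.4 (13.0 to 53.9, 9 tags) and CREB5 peaks 17289 and 11176 bp upstream of the gene start, each of 22.1 (8.9 to 45.5, 7 tags). None of the 7 overlapped an ATF3-CPT peak, where 10.2% of all p53-CPT peaks did, or a peak of the other ATF3 libraries. The nearest ATF3-CPT peak was 1663 bp away, in ATF1. Only 1 of the 7 matched the p53 consensus with at most 3 mismatches (20.3% of all p53-CPT peaks), and it was a CREB5 peak that p53-KO had as well.

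Other genes of the family and of its pathway had ATF3 peaks as well. Of 13 further ATF and CREB family genes, 10 had a peak in ATF3-Ctrl (65.1% of all genes), 12 in ATF3-CPT (81.0%) and 0 in ATF3-KO (11.4%). CREB3L4 is among the 13. Its region overlaps that of CRTC2, so its only ATF3-Ctrl peak (8.5) was also counted there. The heights given for these genes are those of the highest peak in the region, taken separately in each library. The paired values may thus come from different sites, and they are not a change at 1 site. ATF3 itself had the highest peak, with 313.6 in ATF3-Ctrl and 278.8 in ATF3-CPT. JDP2, a close relative that also represses AP-1 sites, had a top height of 42.5 in ATF3-Ctrl and 20.7 in ATF3-CPT, and BATF2 had 18.5 and 91.9. ATF6B had no peak in any of the 5 lists. Of 18 regulators of CREB and ATF6, 13 had a peak in ATF3-Ctrl, 17 in ATF3-CPT and 2 in ATF3-KO, against the same shares of all genes. Among them, RPS6KA5, a kinase of CREB1 and ATF1, had a top height of 75.7 in ATF3-Ctrl and 90.6 in ATF3-CPT, and PRKACB, a catalytic subunit of protein kinase A, had 19.3 and 78.9. MBTPS1, a protease that cleaves ATF6, had 27.8 and 36.2, and MBTPS2, its partner protease, had no peak in either ATF3 library from ATF3-WT cells.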

How the data were processed

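ChIP-seq peaks of 5 libraries from HCT116 cells were analysed, 1 per condition. Reads had been aligned by the authors to hg19 (BWA 0.6.1), and peaks had been called per library by HOMER 4.1 (findPeaks, FDR 0.001, 4-fold over the local 10000 bp, no input control in the header commands). For each peak the deposited lists give a normalized tag count, a signal scaled to 10000000 tags per library. The deposited score is a number of tags computed by the authors without adjustment for library size, and was used only in alternatives. Deposited fold and p columns were not used.

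Peaks on chromosomes 1 to 22, X and Y (33681, 70231, 2149, 9082 and 7768 in ATF3-Ctrl, ATF3-CPT, ATF3-KO, p53-CPT and p53-KO) were assigned to protein-coding genes of GENCODE release 44 on GRCh37, with TSS from all transcripts that have a complete start. Peaks with at least 1 bp in common were counted as overlapping. Tags were recovered from the normalized tag count. Ratios carry exact conditional binomial 95% intervals, and a ratio of at least 2 or at most 0.5 was called. PCR duplicates are not independent, so intervals cover counting error only. Cores were exact matches in the reference. Positions are as deposited. Exon and intron numbers are those of the canonical transcript.

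All members were named. Peaks within 2 kb of a TSS of a member, the highest of each library, and all ATF3-KO and p53 peaks were to be given, and others in ranges. Members, gene lists and rules were chosen with earlier results of these data known. Alternatives covered the upstream reach, score, overlap, fold, scaling, promoter width and motif window, and 2 were added after seeing the data. Scripts (Python 3.11.15, pandas 2.3.3, scipy 1.17.1, pysam 0.24.0) were tested on simulated data.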

Additional observations from a re-analysis of the deposited data

How the results depend on the processing

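Of 40 alternatives, 25 left a count within 1.5 times its value. Peaks in the members with a score of at least 15 numbered 15 in ATF3-Ctrl, 35 in ATF3-CPT, 2 in p53-CPT and 2 in p53-KO, and with a score of at least 20 they numbered 8, 25, 0 and 0, with 1 in ATF3-KO. Taking only peaks whose nearest TSS was that of the member left 1 ATF3-KO peak, at CREM. With a fold of 1.5 in place of 2, 13 shared sites were called higher and 1 lower (60.8% and 6.07% of all shared sites). Scaled by the median ratio of all shared sites, 2 were called higher and 1 lower (8.19% and 15% of all sites), since that scaling removes the rise common to the whole list. For the other settings the cause was not tested. Without CREB5, chosen after seeing the data, 3 sites were called higher. Counts of members with a promoter peak, of ATF3-Ctrl peaks shared with ATF3-CPT or kept in ATF3-KO, and of cores stayed within 1.5 times under every alternative run for them. No paired analysis was possible because each condition had 1 library. Depth limits the p53 values most, at 3.155 and 5.038 per tag, and weak peaks rest on 7 to 10 tags.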
